A study of Homo sapiens with 10 samples.

Results

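The S100 genes encode small calcium-binding proteins, and 10 of them, picked by symbol from the 58222 genes of the expression table, are described here across 10 cultures of the human ovarian adenocarcinoma cell line OVCAR-3. The 10 members are S100A8, S100A9, S100A4, S100A6, S100A10, S100A11, S100A13, S100A14, S100A16 and S100P, and the pair S100A8 and S100A9 is set against the other 8. OVCAR-3 cultures fell into 5 groups of 2 biological replicates, per the labels. Day1 cells were held in silica gel for 24 hours and Day3 cells for 3 days. Extracted cells came through 3 days in the gel and then regrew in standard culture for 2 weeks. Treated cells came through 24 hours of cisplatin at 0.5 uM, a DNA-crosslinking platinum compound, with no gel, and then regrew for 2 weeks. Control cells stayed in standard culture. All libraries come from the same line, and Extracted and Treated are by their labels surviving cells, so that a change in which cells make up the culture and a change within cells cannot be told apart. In the same way, fewer cells making a transcript and less transcript per cell cannot be told apart in these bulk samples.

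S100 proteins bind calcium through paired EF-hand loops and then expose a surface that grips target proteins, and most of them act as dimers. S100A8 and S100A9 pair as calprotectin, which also chelates zinc and manganese, is abundant in neutrophils and monocytes, is made by epithelial cells under inflammation or stress, and signals outside the cell through the receptors TLR4 and RAGE. The other members act mostly inside epithelial and mesenchymal cells. S100A4 binds the heavy chain of non-muscle myosin IIA, S100A6 (calcyclin) binds CACYBP, S100A10 has lost calcium binding and pairs with annexin A2, S100A11 binds annexin A1, S100A13 takes part in the unconventional release of FGF1, and S100P binds ezrin.

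Of the 10 members, 9 lie on chromosome 1 within 1648.4 kb of each other, in the region that also holds genes of epidermal differentiation, and S100P lies on chromosome 4 (GENCODE 29 on GRCh38). S100A9 occupies chr1:153357854-153361027 on the plus strand and S100A8 chr1:153390032-153391188 on the minus strand, so the 2 calprotectin genes are 29004 bases apart and are read in opposite directions. S100A16 (chr1:153606886-153613145) and S100A14 (chr1:153614255-153616986) are separated by 1109 bases and are both on the minus strand. The 250 bases before the first RefSeq start of S100A8, S100A9 and S100A16 (RefSeq, GRCh38.p14) are printed because S100A8 and S100A9 had the largest changes of the family and S100A16, with its neighbour S100A14, was the only member pair called in both groups of recovered cells. The windows are chr1:153391189-153391438 on the minus strand, chr1:153357604-153357853 on the plus strand and chr1:153613138-153613387 on the minus strand. Capitals mark matches, on either strand, to any of 5 letter patterns.
S100A8: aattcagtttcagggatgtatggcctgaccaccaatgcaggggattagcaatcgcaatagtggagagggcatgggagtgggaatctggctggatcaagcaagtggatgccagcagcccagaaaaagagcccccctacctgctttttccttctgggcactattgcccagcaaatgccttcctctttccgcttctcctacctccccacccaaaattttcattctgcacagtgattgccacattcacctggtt
S100A9: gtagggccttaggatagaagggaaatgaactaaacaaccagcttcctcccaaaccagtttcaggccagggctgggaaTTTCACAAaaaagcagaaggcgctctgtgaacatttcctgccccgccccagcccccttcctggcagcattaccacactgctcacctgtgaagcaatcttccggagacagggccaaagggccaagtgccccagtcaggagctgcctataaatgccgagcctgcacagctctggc
S100A16: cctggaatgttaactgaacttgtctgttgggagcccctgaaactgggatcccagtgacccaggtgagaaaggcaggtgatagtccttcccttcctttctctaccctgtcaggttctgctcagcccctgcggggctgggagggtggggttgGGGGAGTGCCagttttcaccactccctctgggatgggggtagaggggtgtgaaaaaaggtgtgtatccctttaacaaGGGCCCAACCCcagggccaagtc
The patterns searched were TTGCNNAA and TTNNGNAA (C/EBP-like), an NF-kB-like pattern (GGG and CC around any 5 letters), TGANTCA (AP-1-like) and TTCNNNGAA (STAT-like), and among 35116 RefSeq promoter windows of 250 bases they were present in 9.05%, 33.2%, 54.4%, 6.57% and 6.57%, in that order. The S100A9 window held 1 match, TTTCACAA, which is TTNNGNAA read on the other strand and lies 173 to 166 bases before the start. The S100A8 window held none, and the window of the second of its 3 RefSeq starts held 1 TTNNGNAA match, TTGAGAAA. The window of the third held that match and TTTCAGAA, the same pattern on the other strand, and overlapping NF-kB-like matches, the first being GGGTTGGCCC. The S100A16 window held the NF-kB-like pattern alone, in the runs GGGGAGTGCC and GGGCCCAACCC, the second of which holds overlapping matches on both strands. These patterns are common in promoters, and a match describes letters only.

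Expression was read from the deposited TPM, which divide each transcript's signal by its length and give every library the same sum, so that TPM compare between genes and are shares of a library. Between 13896 and 14173 genes reached 1 TPM per library. Small-RNA genes held 14.7% of all TPM in Treated replicate 2 and 3.21% in Extracted replicate 1, against 0.196% to 1.24% in the other 8 libraries, and mitochondrial messenger RNA ranged from 2.29% to 16.7%. The mitochondrial share differed by group. It was 2.29% and 3.92% in Day1, 5.97% and 7.61% in Day3, and 16.7% and 15.8% in Control. In Extracted and Treated it lay between 10.4% and 11.1%. TPM keep no read depth, so no counting interval can be given, and a value listed at 0 may be a failed estimate. Differences were tested with limma on log2(TPM + 1) over the 15167 genes that reached 1 TPM in 2 or more libraries, and calls were made where the p adjusted by Benjamini-Hochberg was under 0.05. A fold change on this scale understates the ratio of low TPM. The median change of all tested genes was 0.12 for Day1 and -0.15 for Treated against Control, and -0.13 for Treated against Extracted, on the log2 scale. Of the 10 members 9 were tested, and S100P stayed under the filter. S100A8 was under 1 TPM in all 4 Extracted and Control libraries and entered the test through the 6 libraries in which it was higher. The comparisons against Control share its 2 libraries.

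**Figure D1:**
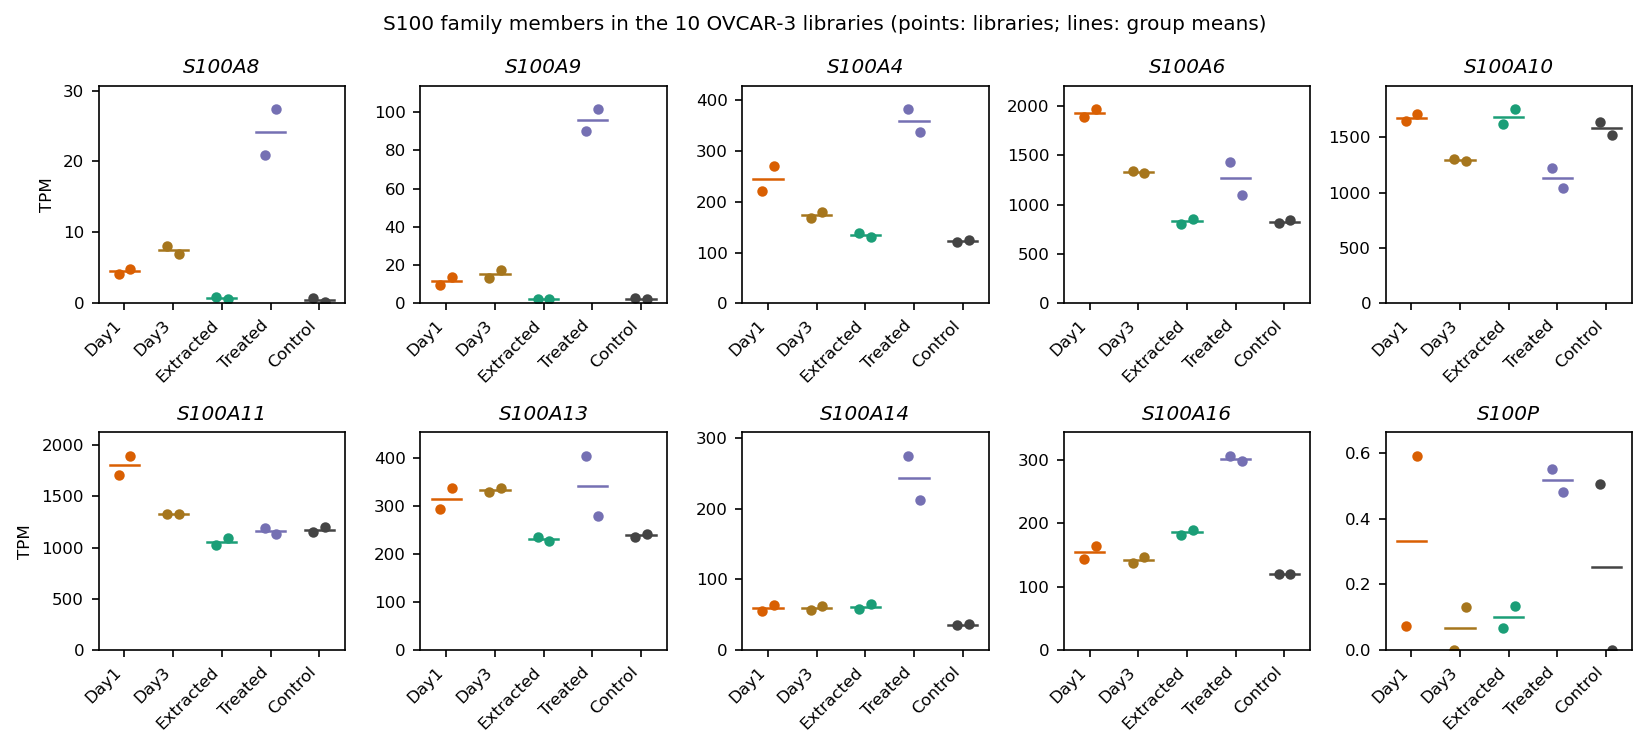
TPM of the 10 members, one panel each on its own linear axis from 0, by group in the order Day1, Day3, Extracted, Treated and Control. Points are the 2 libraries of a group and lines are their means. S100A8 and S100A9 sit highest in Treated, while S100A6, S100A10 and S100A11 lie between 806.2 and 1968 TPM in every library.

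S100A8 and S100A9, the subunits of calprotectin, were higher than Control in the gel at both times and in Treated cells, and were back near the Control level in Extracted cells. S100A8 read 4.14 and 4.84 TPM in Day1, 8.02 and 6.91 TPM in Day3, 0.838 and 0.640 TPM in Extracted, 20.9 and 27.4 TPM in Treated, and 0.791 and 0.196 TPM in Control. Its Treated, Day3 and Day1 libraries stood apart from each other in that falling order, and Extracted and Control overlapped below 1 TPM. S100A9 read 9.54 and 13.9 TPM in Day1, 13.3 and 17.4 TPM in Day3, 2.35 and 2.03 TPM in Extracted, 90.3 and 101.4 TPM in Treated, and 2.56 and 2.20 TPM in Control. Its Treated libraries were above all others, Day3 and Day1 overlapped, and Control and Extracted overlapped at the bottom.

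Against Control, S100A9 rose by 4.84 ± 0.186 on the log2 scale in Treated (SE, n = 2 per group, limma adjusted p = 2.7e-06) and S100A8 by 4.09 ± 0.215 (limma adjusted p = 6.39e-06). Among the 15167 genes tested these were the rises ranked 2 and 3. As a ratio of mean TPM, which does not carry the pseudocount, S100A9 was 40.3 times and S100A8 48.9 times the Control level, with Control means of only 2.38 ± 0.256 and 0.493 ± 0.421 TPM (SD, n = 2). The S100A8 ratio turned on the Control library used: it was 123 without Control replicate 1 and 30.5 without Control replicate 2. In Day3 S100A8 rose by 2.53 ± 0.215 (limma adjusted p = 0.000296) and S100A9 by 2.26 ± 0.186 (limma adjusted p = 0.000263), at ranks 5 and 8. In Day1 both rose by 1.90, with limma adjusted p of 0.000571 for S100A8 and 0.000277 for S100A9, at ranks 28 and 30. In Extracted neither was called. The change of S100A8 was 0.25 (95% interval -0.23 to 0.73, limma adjusted p = 0.602) and that of S100A9 was -0.08 (-0.50 to 0.33, limma adjusted p = 0.861).

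The same pair fell in Extracted cells relative to Day3, by 2.35 on the log2 scale for S100A9 (limma adjusted p = 0.000126) and by 2.28 for S100A8 (limma adjusted p = 0.000234). Between Treated and Extracted, the 2 groups that regrew for 2 weeks, S100A9 was higher in Treated by 4.92 (limma adjusted p = 2.28e-06) and S100A8 by 3.84 (limma adjusted p = 5.25e-05). Between Day3 and Day1 the differences were 0.62 for S100A8 (95% interval 0.15 to 1.10, limma adjusted p = 0.176) and 0.37 for S100A9 (-0.05 to 0.78, limma adjusted p = 0.345), and neither was called. All 10 of the calls just given for the pair kept their direction and their side of the threshold under all 18 alternatives, among them each library left out in turn. The low Control level makes the size for S100A8 depend on the pseudocount. With a pseudocount of 0.1 in place of 1 its log2 change against Control was 3.16 in Day1, 3.88 in Day3 and 5.55 in Treated. The ratio of S100A9 to S100A8 TPM was 4.32 and 3.71 in Treated, 1.66 and 2.51 in Day3 and 2.30 and 2.88 in Day1. In Extracted it was 2.81 and 3.17, and in Control, where S100A8 was lowest, 3.24 and 11.2.

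Set against the other members, calprotectin remained a small share of the family's transcripts even where it was highest. S100A8 and S100A9 together made up 0.229% and 0.293% of the summed TPM of the 10 members in Day1, 0.455% and 0.519% in Day3, 0.0786% and 0.0618% in Extracted, 2.09% and 2.84% in Treated, and 0.0816% and 0.0585% in Control. S100A6, S100A10 and S100A11, the most abundant members, made up 72.2% in both Treated libraries, against 84.0% to 87.8% in the other 8. The mean log2(TPM + 1) of the pair minus that of the other 8 was -4.80 and -4.66 in Day1, -3.97 and -3.95 in Day3, -6.04 and -6.25 in Extracted, -2.67 and -2.17 in Treated, and -5.91 and -6.23 in Control. The gap to the rest of the family was therefore narrowest in Treated, next in Day3 and then in Day1, and Extracted and Control overlapped. The 10 members together held between 0.406% and 0.642% of all TPM in a library.

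**Figure D2:**
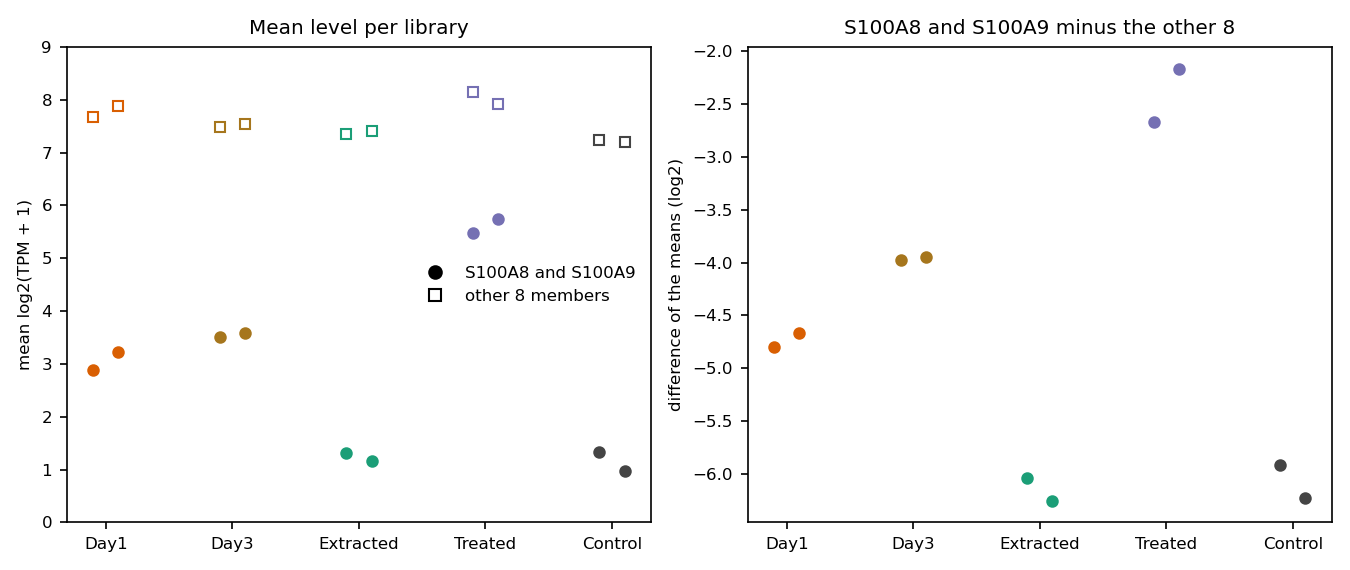
Mean log2(TPM + 1) of S100A8 and S100A9 and of the other 8 members, one point per library (left), and the difference of the 2 means on the log2 scale (right), by group in the order Day1, Day3, Extracted, Treated and Control. The pair ranges from 0.97 to 5.75 and the other members from 7.19 to 8.15, and the difference is nearest to 0 in Treated, at -2.67 and -2.17.

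Of the members known mainly from inside the cell, S100A4 and S100A6 rose in the gel and in Treated cells, and neither was called in Extracted cells. S100A4, the myosin-binding member, read 221.5 and 269.8 TPM in Day1, 167.2 and 179.6 TPM in Day3, 138.9 and 131.0 TPM in Extracted, 382.2 and 337.8 TPM in Treated, and 120.3 and 125.0 TPM in Control. Its 5 groups did not overlap, in the order Treated, Day1, Day3, Extracted and Control. The log2 change against Control was 1.54 ± 0.112 in Treated (limma adjusted p = 4.16e-05), 0.99 ± 0.112 in Day1 (limma adjusted p = 0.000602) and 0.50 ± 0.112 in Day3 (limma adjusted p = 0.0256), and 0.14 in Extracted, where the limma adjusted p was 0.578. The Day3 call was lost without either Day3 library, without either Control library and with no filter, where the highest adjusted p was 0.166.

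S100A6, calcyclin, was highest in Day1, unlike S100A4. It read 1892 and 1968 TPM in Day1, 1347 and 1321 TPM in Day3, 806.2 and 858.9 TPM in Extracted, 1438 and 1103 TPM in Treated, and 811.1 and 844.3 TPM in Control. Day3 and Treated overlapped, as did Extracted and Control. Against Control it rose by 1.22 ± 0.116 on the log2 scale in Day1 (limma adjusted p = 0.000241), by 0.69 in Day3 (limma adjusted p = 0.00844) and by 0.61 in Treated (limma adjusted p = 0.00564), and the Extracted difference was 0.01 (95% interval -0.25 to 0.27, limma adjusted p = 0.98). It fell by 0.53 in Day3 relative to Day1 (limma adjusted p = 0.0459) and by 0.68 in Extracted relative to Day3 (limma adjusted p = 0.00417). The Treated call was lost in the fit of the 2 groups alone (limma adjusted p = 0.0577). The Day3 call against Control was lost without either Day3 or either Control library, and the Day3 call against Day1 was lost under 11 of 18 alternatives, among them every omission of a Day1, Day3, Extracted or Control library.

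S100A10 and S100A11, the annexin partners, did not follow calprotectin. S100A10 read 1648 and 1705 TPM in Day1, 1303 and 1282 TPM in Day3, 1618 and 1751 TPM in Extracted, 1225 and 1037 TPM in Treated, and 1634 and 1522 TPM in Control. Treated was lowest, Day3 next, and the Day1 and Extracted libraries overlapped above. S100A10 was the only member called lower than Control in any group: it fell by 0.48 ± 0.0978 on the log2 scale in Treated (limma adjusted p = 0.00716), a call lost without Control replicate 1 and in the fit of the 2 groups alone, where the highest adjusted p was 0.0667. In the other groups its change against Control was 0.09 in Day1 (limma adjusted p = 0.556), -0.29 in Day3 (limma adjusted p = 0.0962) and 0.09 in Extracted (limma adjusted p = 0.674). The Day1 sign turned under 3 rescalings, and the Day3 decrease was called under those 3, in the fit of the 2 groups alone and without either Treated library. Annexin A2 (ANXA2), its partner, was at 3633 and 3095 TPM in Treated, against 3779 and 3580 TPM in Control, a log2 difference of -0.13 with a limma adjusted p of 0.334.

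S100A11, which binds annexin A1, was called higher than Control in Day1, and in Day3 only in the fit of the 2 groups alone. It read 1710 and 1897 TPM in Day1, 1325 and 1324 TPM in Day3, 1020 and 1089 TPM in Extracted, 1187 and 1129 TPM in Treated, and 1148 and 1203 TPM in Control. Day1 was highest and Day3 next, and the Treated and Control libraries overlapped. The Day1 rise was 0.62 ± 0.086 (limma adjusted p = 0.00181) and kept its call under all 18 alternatives. The Treated difference was -0.02 (95% interval -0.21 to 0.17, limma adjusted p = 0.882), and its sign turned under 5 of 18 alternatives. S100A11 fell by 0.44 in Day3 relative to Day1 (limma adjusted p = 0.032) and by 0.33 in Extracted relative to Day3 (limma adjusted p = 0.0271). Both calls were lost without any single Day3, Extracted or Control library, and the first also without either Day1 library, with adjusted p of up to 0.229.

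S100A14 and S100A16, the neighbours 1109 bases apart with the S100A16 sequence printed above reaching into the stretch between them, were the only members called in Extracted cells, and both rose further in Treated cells. S100A14, a member of epithelial tissues, read 55.6 and 62.8 TPM in Day1, 56.7 and 62.1 TPM in Day3, 57.1 and 64.3 TPM in Extracted, 274.9 and 212.9 TPM in Treated, and 34.7 and 36.0 TPM in Control. Treated stood far above, Day1, Day3 and Extracted overlapped, and Control was lowest. The log2 change against Control was 2.74 ± 0.133 in Treated (limma adjusted p = 4.71e-06), rank 17 of all genes tested. It was 0.73 in Day1 (limma adjusted p = 0.0059), 0.73 in Day3 (limma adjusted p = 0.011) and 0.76 in Extracted (limma adjusted p = 0.0244).

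S100A16, a widely expressed member, read 143.7 and 164.9 TPM in Day1, 137.0 and 147.1 TPM in Day3, 181.9 and 189.7 TPM in Extracted, 307.2 and 298.3 TPM in Treated, and 120.6 and 119.2 TPM in Control. Treated was highest and Extracted next, without overlap, and Day1 and Day3 overlapped above Control. It rose against Control by 1.33 ± 0.0938 in Treated (limma adjusted p = 3.54e-05), by 0.63 in Extracted (limma adjusted p = 0.0168) and by 0.36 in Day1 (limma adjusted p = 0.025), and the Day3 difference of 0.24 was not called (limma adjusted p = 0.136). The Day1 call of S100A16 was lost under all 3 rescalings, in the fit of the 2 groups alone and without Day1 replicate 2 or either Control library. In Extracted, the calls of both genes were lost without either Extracted or either Control library, with adjusted p of up to 0.254 for S100A14 and 0.190 for S100A16, and that of S100A14 also without either Day3 library. S100A14 lost its Day3 call without either Day3 or either Control library. Treated over Extracted, S100A14 was higher by 1.98 (limma adjusted p = 0.0001) and S100A16 by 0.70 (limma adjusted p = 0.00301), the second call being lost in the fit of the 2 groups alone (limma adjusted p = 0.0631).

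S100A13, which takes part in FGF1 release, varied most between replicates in Treated. It read 293.2 and 336.9 TPM in Day1, 329.4 and 336.4 TPM in Day3, 235.2 and 227.4 TPM in Extracted, 404.1 and 279.5 TPM in Treated, and 234.3 and 242.1 TPM in Control. The Treated libraries spanned those of Day1 and Day3, and Extracted and Control overlapped. The log2 change against Control was 0.49 ± 0.149 in Treated (limma adjusted p = 0.0369), 0.48 in Day3 (limma adjusted p = 0.0714), 0.40 in Day1 (limma adjusted p = 0.0849) and -0.04 in Extracted (limma adjusted p = 0.917). The Treated call was lost under 9 of 18 alternatives, among them omission of Treated replicate 1 or of any Day3, Extracted or Control library, and the value was 0.23 without Treated replicate 1 and 0.76 without Treated replicate 2. S100A13 shares 235 exon bases with S100A1 on the opposite strand, and the strand setting of the libraries is not given in the sources used here, so reads of the 2 genes may have been assigned to either.

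S100P, which binds ezrin, was near 0 throughout. It read 0.072 and 0.593 TPM in Day1, 0 and 0.131 TPM in Day3, 0.0653 and 0.133 TPM in Extracted, 0.554 and 0.482 TPM in Treated, and 0.507 and 0 TPM in Control, and all 4 pairs of neighbouring groups overlapped. Without the filter on low values its log2 change was 0.31 in Treated against Control (95% interval -0.26 to 0.87, limma adjusted p = 0.501), and no comparison called it.

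**Figure D3:**
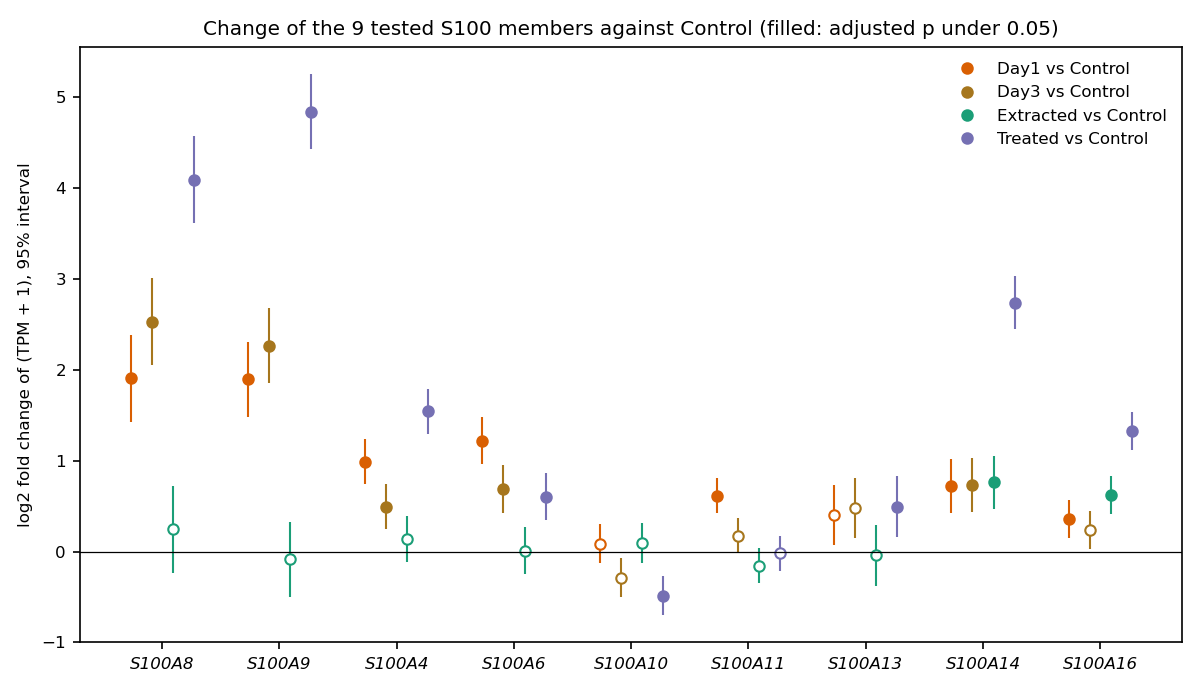
Log2 fold change of (TPM + 1), with its 95% interval, for the 9 tested members in Day1, Day3, Extracted and Treated against Control (n = 2 libraries per group, limma). S100A8 and S100A9 lie farthest from 0 in Day1, Day3 and Treated, and S100A14 at 0.76 and S100A16 at 0.63 are the called members in Extracted.

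Counted over the tested members, the share called higher than Control was above the background share of all genes in each of the 4 groups. In Day1 7 of 9 were called higher, against 14.4% of all genes, and 0 lower, against 6.28%. The members' median log2 change was 0.73, against 0.12 over all genes. In Day3 5 of 9 were called higher, against a background of 5.18%, and 0 lower, against 4.64%, with medians of 0.50 for the members and 0.06 for all genes. In Extracted 2 of 9 were called higher, against a background of 0.857%, and 0 lower, against 1.13%, with medians of 0.09 and -0.02. In Treated 7 of 9 were called higher, against a background of 6.28%, and 1 lower, against 18.2%, with medians of 1.33 and -0.15. The Day3 count was 2 without either Day3 or either Control library, leaving S100A8 and S100A9, and the Extracted count was 0 without either Extracted or either Control library. The members were picked with results of these data known and S100A8 entered through the groups in which it is high, so the counts are a description of these genes.

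Between the later and earlier states, Day3 had 0 of 9 members higher and 2 lower than Day1, against a background of 0.659% and 1.69%, with medians of -0.12 for the members and -0.06 for all genes. That count was 0 without any single Day1, Day3, Extracted or Control library and 4 without either Treated library. Extracted had 2 of 9 higher than Day3, which were S100A10 by 0.38 (limma adjusted p = 0.0252) and S100A16 by 0.39 (limma adjusted p = 0.0201), and 5 lower, which were S100A8, S100A9, S100A6, S100A11 and S100A13. The background was 6.3% higher and 10.8% lower, with medians of -0.36 and -0.07, and the 7 calls became 3 without either Extracted or either Day3 library. Treated had 7 of 9 higher than Extracted and 1 lower, S100A10 by -0.58 (limma adjusted p = 0.009), against a background of 3.24% and 8.87% and with medians of 0.70 and -0.13. The 8 calls became 5 without either Extracted library. Across all 5 groups the limma F test called 9 of 9 tested members, against a background of 47.1%. The limits given above for the choice of members and the entry of S100A8 hold for these counts too, which are a description of these genes.

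Of 11 further genes, 10 of them S100 genes and 1 the S100P-binding protein gene S100PBP, 6 were tested. Of these 6, 2 were called higher than Control in each of Day1 and Day3, 0 in Extracted and 3 in Treated. In each group 0 were called lower. Among all genes tested, Day1 had 14.4% called higher and 6.28% called lower than Control, and Day3 had 5.18% and 4.64%. The same shares were 0.857% and 1.13% for Extracted, and 6.28% and 18.2% for Treated. One of the 3 Treated calls was S100A7, psoriasin, which passed the filter only through the Treated libraries, so without it 2 of 5 were called higher. S100A2, an epithelial member, read 154.1 and 171.4 TPM in Day1, 80.7 and 92.2 TPM in Day3, 66.8 and 68.9 TPM in Extracted, 149.6 and 107.7 TPM in Treated, and 58.3 and 56.7 TPM in Control. Its rise against Control was 1.48 in Day1 (limma adjusted p = 0.000275), 0.58 in Day3 (limma adjusted p = 0.0361) and 1.13 in Treated (limma adjusted p = 0.000815), and the Day3 call was lost without any single Day3, Extracted or Control library. S100A1, known from calcium handling in heart muscle, read 200.4 and 158.7 TPM in Treated, against 57.3 and 68.3 TPM in Control, a log2 change of 1.50 (limma adjusted p = 0.000427), with the overlap with S100A13 named above. S100A7 was listed at 4.21 and 1.70 TPM in Treated and at 0 in the other 8 libraries, and no fold is given. S100A5 lay between 1.25 and 4.12 TPM and S100A3 between 1.08 and 4.10 TPM, and S100A5 rose by 0.77 in Day1 (limma adjusted p = 0.0261), a call lost under 6 of 17 alternatives, among them omission of Day1 replicate 2 or of either Control library. S100B and S100G were listed at 0 in all 10 libraries.

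**Figure D4:**
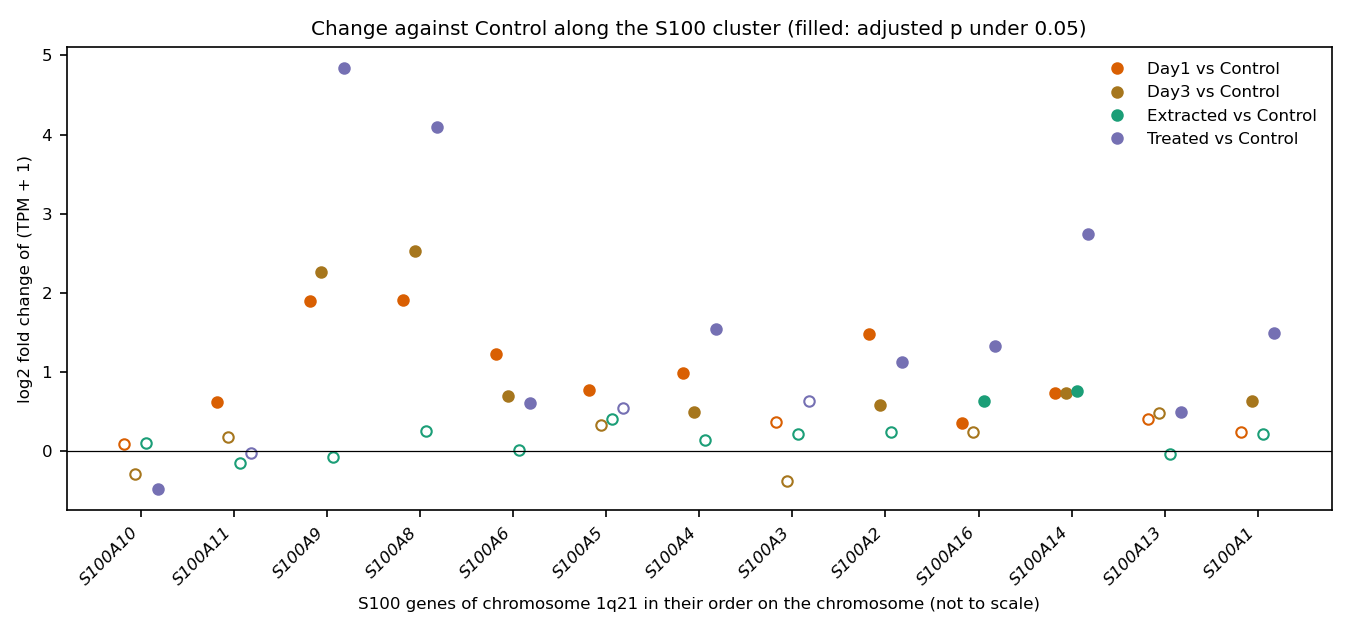
Log2 fold change of (TPM + 1) against Control in Day1, Day3, Extracted and Treated for the tested S100 genes of chromosome 1, in their order along the chromosome and not to scale, with S100A7 left out because Control is listed at 0. Filled points passed an adjusted p under 0.05; in Treated, high values at S100A9 and S100A8 and at S100A14 stand apart from lower ones between them.

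Along the chromosome the changes were not uniform. Of the tested genes between S100A8 and S100A16, S100A6, S100A4 and S100A2 had log2 changes against Control of 0.61, 1.54 and 1.13 in Treated. S100A5 had 0.54 and S100A3 0.63, neither called (limma adjusted p = 0.0797 and 0.0508), and S100A16 had 1.33 and S100A14 2.74. S100A7, for which no fold is given, also lies there. Of 25 genes of the surrounding region chosen as neighbours, which include S100A7 and S100A12, 8 were tested. Apart from S100A7, 0 of 7 were called higher and 4 lower in Treated, against 6.28% and 18.2% of all genes. Of the 4, NPR1 fell by 0.95 (limma adjusted p = 0.000639), a call kept under all 18 alternatives. FLG, filaggrin of the outer skin, fell by 1.77 in Treated (limma adjusted p = 0.000197), by 2.29 in Day1 (limma adjusted p = 0.000101) and by 1.90 in Day3 (limma adjusted p = 0.000446). It read 10.2 and 9.22 TPM in Day1, 14.6 and 11.7 TPM in Day3, 42.6 and 52.5 TPM in Extracted, 16.5 and 12.5 TPM in Treated, and 46.5 and 57.2 TPM in Control. FLG was lower in the 3 groups in which S100A8 and S100A9 were higher, without overlap with Extracted or Control.

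Of 20 genes for binding partners of the family, 18 were tested. In Treated 2 of 18 were called higher and 1 lower than Control, against 6.28% and 18.2% of all genes, with a median of 0.04, against -0.15 over all genes. PLAU and PLAT encode plasminogen activators, enzymes of a system that the pair of annexin A2 and S100A10 recruits to the cell surface. They rose in Treated by 1.61 (limma adjusted p = 0.00202) and 0.86 (limma adjusted p = 0.00118), while S100A10 fell, with the losses of that call given above. Of the same system, PLAUR was not called in Treated (-0.02, limma adjusted p = 0.956), and PLG was listed at 0 in all 10 libraries. PLAU read 216.5 and 189.6 TPM in Treated, against 74.8 and 57.4 TPM in Control, and PLAT 23.0 and 19.8 TPM in Treated, against 10.9 and 11.8 TPM in Control. MYH9, the myosin heavy chain that S100A4 binds, fell by 0.40 in Treated (limma adjusted p = 0.0486), a call lost under 10 of 18 alternatives, among them omission of Treated replicate 2 or of any Day3, Extracted or Control library. In Day1 2 partners were called higher and 1 lower, against 14.4% and 6.28% of all genes. PLAT rose by 1.31 (limma adjusted p = 0.00022), and PLAU rose by 0.86 (limma adjusted p = 0.0371), a call lost under 12 of 18 alternatives, among them the 3 rescalings, no filter, the 2 groups alone and omission of Day1 replicate 1 or any Day3, Extracted or Control library, with values from 0.40 to 1.32. MYH9 fell by 0.70 in Day1 (limma adjusted p = 0.00661), a call lost without Control replicate 2. In Day3 1 partner was called higher and 2 lower, against 5.18% and 4.64% of all genes, with MYH9 at -0.86 (limma adjusted p = 0.00546, lost without Day3 replicate 2 or Control replicate 2). The other lower one was PLAUR at -0.70 (limma adjusted p = 0.0349), a call lost without any single Day3, Extracted or Control library. In Extracted 0 were called higher and 1 lower, against 0.857% and 1.13% of all genes, the called gene being PLAT at -0.63 (limma adjusted p = 0.0323), a call lost without any single Day3, Extracted or Control library.

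Of 10 genes for receptors of secreted S100 proteins and their adaptors, 7 were tested. TLR4, the receptor of calprotectin, was listed at 0 in all 10 libraries. AGER, which encodes RAGE, read 1.21 and 1.26 TPM in Day1, 1.04 and 1.65 TPM in Day3, 4.86 and 5.71 TPM in Extracted, 7.0 and 3.22 TPM in Treated, and 5.49 and 7.64 TPM in Control. It was low in the gel and overlapped with Control in the other groups, with log2 changes of -1.74 in Day1 (limma adjusted p = 0.00335) and -1.69 in Day3 (limma adjusted p = 0.00799, lost without Day3 replicate 1 or Control replicate 2). In Treated AGER was not called (-0.37, limma adjusted p = 0.37), 0 of 7 receptors were called higher and 3 lower, against 6.28% and 18.2% of all genes, with a median of -0.37, against -0.15 over all genes. These were ALCAM, a cell adhesion molecule that binds S100 proteins, by 1.47 (limma adjusted p = 0.000184), MCAM by 0.89 (limma adjusted p = 0.014) and TIRAP by 0.67 (limma adjusted p = 0.036). The MCAM call was lost without either Control library and the TIRAP call without any single Treated, Extracted or Control library. In Day1 1 was called higher and 1 lower (14.4% and 6.28% of all genes), in Day3 0 and 1 (5.18% and 4.64%), and in Extracted 0 and 1 (0.857% and 1.13%), the last being ALCAM at -0.94 (limma adjusted p = 0.0172, lost without either Extracted or either Control library).

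Of 21 genes for regulators of S100A8 and S100A9 known from other cells, 18 were tested. In Day1 8 of 18 were called higher than Control and 1 lower, against 14.4% and 6.28% of all genes, and in Day3 1 was higher and 3 lower, against 5.18% and 4.64%. Extracted had 2 higher and 0 lower, against 0.857% and 1.13%, and Treated had 4 higher and 1 lower, against 6.28% and 18.2%. The medians were 0.34 in Day1 and 0.16 in Treated, against 0.12 and -0.15 over all genes. FOSL1, a subunit of the transcription factor AP-1, read 33.2 and 18.3 TPM in Day1, 6.29 and 6.85 TPM in Day3, 18.8 and 29.6 TPM in Extracted, 22.9 and 21.6 TPM in Treated, and 4.14 and 4.08 TPM in Control. It was high in Day1, Extracted and Treated, which overlapped. Its log2 change was 2.33 in Day1 (limma adjusted p = 0.000479), 2.27 in Extracted (limma adjusted p = 0.005, lost without Extracted replicate 2 or either Control library) and 2.19 in Treated (limma adjusted p = 0.000491). FOS, its relative, rose by 1.36 in Treated (limma adjusted p = 0.000348) and by 1.35 in Extracted (limma adjusted p = 0.005, lost without Extracted replicate 1 or either Control library). JUNB rose by 0.53 in Treated (limma adjusted p = 0.0129), a call lost without Control replicate 1. CEBPA, a transcription factor of myeloid cells, rose by 0.68 in Day1 (limma adjusted p = 0.0286). It was low, at 2.26 and 2.58 TPM in Day1 and 1.05 and 1.23 TPM in Control. NFKB1, a subunit of NF-kB, rose by 0.63 in Day1 (limma adjusted p = 0.0233). Both calls were lost without Day1 replicate 1, either Control library, or mitochondrial and small-RNA genes, and in the fit of the 2 groups alone. That of CEBPA was also lost without Day1 replicate 2 and under the median of ratios scaling. CEBPB, at 44.3 to 70.6 TPM, was called higher in Day1 (0.50, limma adjusted p = 0.0126) and Treated (0.45, limma adjusted p = 0.0168), and not in Day3 or Extracted. HIF1A was the 1 regulator called higher in Day3, by 0.47 (limma adjusted p = 0.0266), at 386.6 and 340.3 TPM, against 253.9 and 269.2 TPM in Control. It was also the 1 called lower in Treated, at -0.48 (limma adjusted p = 0.0117). In Day3 IL6, an inflammatory cytokine, fell by 1.40 (limma adjusted p = 0.00949), a call lost without Control replicate 1 or Day3 replicate 2. The calls of FOS at -0.60 (limma adjusted p = 0.0349) and SOCS3 at -0.49 (limma adjusted p = 0.0356) were lost without either Day3 or either Control library, and that of SOCS3 also without either Extracted library. The part of any of these regulators in the S100A8 and S100A9 result was not tested.

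Markers of the cells in which calprotectin is best known were low in all libraries. The summed TPM of 14 neutrophil and monocyte genes was 2.44 to 3.35 in Day1, 2.70 to 4.08 in Day3, 3.05 to 3.87 in Extracted, 8.32 to 9.16 in Treated and 3.21 to 6.04 in Control. Both replicates listed 8, 7, 8, 7 and 9 of the 14 at 0, in the same order of groups, and CSF3R, ELANE, FCGR3A and FCN1 were at 0 in all 10 libraries. Most of the Treated sum was CD68, a lysosomal protein gene that is not restricted to these cells, at 6.21 and 7.46 TPM, against 5.21 and 2.59 TPM in Control. CD14, a monocyte surface receptor gene, was at 1.31 and 1.21 TPM in Treated, against 0.251 and 0.257 TPM in Extracted, and was called higher by 0.85 (limma adjusted p = 0.0283). It reached 1 TPM in the Treated libraries alone and so entered the test through the group in which it was high. Against Control, at 0.646 and 0.365 TPM, the difference was 0.59 (limma adjusted p = 0.0594). The 9 markers of ovarian carcinoma epithelium summed to 5811 to 6443 TPM in Day1, 5726 to 6090 in Day3, 5668 to 5743 in Extracted, 6364 to 7500 in Treated and 5177 to 5284 in Control, and none was at 0 in any group. They did not move together. In Treated 4 of 9 were called higher and 2 lower, against 6.28% and 18.2% of all genes. Those called higher included MSLN by 0.82 (limma adjusted p = 0.00227) and KRT18 by 0.74 (limma adjusted p = 0.00139). The lower ones were CDH1 at -0.51 (limma adjusted p = 0.00355) and PAX8 at -0.46 (limma adjusted p = 0.0295). In Day1 1 of 9 was called higher and 0 lower, against 14.4% and 6.28% of all genes. Day3 had the same counts, against 5.18% and 4.64%. The called gene was WFDC2, by 1.07 in Day1 (limma adjusted p = 0.000236) and by 1.13 in Day3 (limma adjusted p = 0.000368). In Extracted 0 were called higher and 1 lower, against 0.857% and 1.13% of all genes, the called gene being CDH1 at -0.49 (limma adjusted p = 0.0274). The 8 squamous keratinocyte markers summed to 7.29 to 7.67 TPM in Day1, 4.12 to 6.24 in Day3, 8.10 to 9.68 in Extracted, 14.5 to 15.4 in Treated and 6.78 to 7.55 in Control. Most of the Treated sum was KRT6A, a keratin of stressed squamous epithelium, at 11.1 and 10.5 TPM, against 3.78 and 4.12 TPM in Control. Its log2 change in Treated was 1.25 (limma adjusted p = 0.00154). In Day3 KRT6A read 2.76 and 1.55 TPM, below both Control libraries. KRT13, KRT14, TP63, IVL, SPRR1B and DSG3 stayed under 1 TPM in all 10 libraries. Fibroblast markers summed to 7.22 to 15.4 TPM and endothelial markers to 1.25 to 2.75 TPM over all libraries. The part of any of these markers in the calprotectin result was not tested.

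Among 11146 genes outside the family with a mean of at least 5 TPM in at least 1 group, the 5 whose log2(TPM + 1) was most like the mean of S100A8 and S100A9 over the 10 libraries were C19orf66, CASTOR1, PORCN, IFI44 and SLC16A5. Pearson's r was 0.975, 0.963, 0.959, 0.949 and 0.946, in that order, and since libraries of a group share their treatment, r mostly describes the 5 group levels. C19orf66, an interferon-stimulated gene, averaged 6.74 ± 0.0855 TPM in Day1, 8.18 ± 0.273 TPM in Day3, 5.47 ± 0.0585 TPM in Extracted, 12.3 ± 0.260 TPM in Treated and 4.27 ± 0.0118 TPM in Control (SD, n = 2 each). IFI44, another interferon-stimulated gene, averaged 15.2 ± 0.0547 TPM in Day1, 13.1 ± 0.286 TPM in Day3, 7.33 ± 0.668 TPM in Extracted, 22.2 ± 3.59 TPM in Treated and 8.48 ± 0.504 TPM in Control (SD, n = 2 each). The Treated and Control means were 7.99 and 3.75 TPM for CASTOR1, 15.3 and 11.1 TPM for PORCN, and 11.6 and 5.61 TPM for SLC16A5. By their means all 5 genes were highest in Treated and above Control in Day1 and Day3, over a much narrower range than S100A9. IFI44 averaged more in Day1 than in Day3, as did PORCN, at 12.6 and 12.4 TPM. The means of S100A8 and S100A9 were higher in Day3, a difference that was not called for either.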

How the data were processed

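RNA of 10 OVCAR-3 cultures was sequenced, 2 per group. The authors deposited TPM per gene and library, made with Trimmomatic, STAR, GRCh38 and Cufflinks per the submitters' processing notes. Versions, annotation release, strand setting and depth were not given in the sources used here. Its 58313 entries (349 blank lines aside) were summed over 91 repeated identifiers to 58222 genes, of which GENCODE 29 held 57959 (99.55%). All 10 libraries were fitted together on log2(TPM + 1) over the 15167 genes that reached 1 TPM in 2 or more of them, using limma (3.58.1, R 4.3.3) with group means, a trend and 5 residual degrees of freedom. Tests were two-sided, with Benjamini-Hochberg adjustment over all genes and a threshold of 0.05, and p-values measure the spread between the labelled replicates. The procedure was tested on simulated data. Tables used pandas 2.3.3 and NumPy 2.4.6 and figures Matplotlib 3.10.9, in Python 3.11.15. Alternatives were a pseudocount of 0.1, no filter or 5 TPM, 3 rescalings, the 2 compared groups alone, omission of each library, and replicate number as a block. The members and lists were chosen with earlier results of these data known. All members were described, and of each list called genes among those with the largest changes, at most 3 per comparison. Not every gene that met this rule is named. A few further genes of the lists were named beyond this number. The motif windows are the 250 bases before each RefSeq start.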

Additional observations from a re-analysis of the deposited data

How the results depend on the processing

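Each tested member's 7 comparisons were recomputed under 18 alternatives, 1134 values in all. Of these 978 kept direction and side of the threshold, 107 lost a call, 31 gained one and 18 changed sign, none of them a called value. Under the median of ratios scaling, without mitochondrial and small-RNA genes, and with nuclear coding genes alone, S100A10 in Day1 against Control was -0.0565, -0.117 and -0.122, and S100A11 in Treated against Control was 0.157, 0.0112 and 0.0231. S100A6 in Extracted against Control was -0.0592 and -0.0621 under the last 2. With 1 library left out, values that crossed 0 ranged from -0.0576 to 0.0146 for S100A11 in Treated against Control. In Extracted against Control they ranged from -0.0376 to 0.0537 for S100A6 and from -0.0446 to 0.538 for S100A8. For Day3 against Day1 they ranged from -0.0175 to 0.183 for S100A13 and from -0.0812 to 0.0919 for S100A14, and for Extracted against Day3 from -0.0545 to 0.114 for S100A14.

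Of the 9 tested members, the number called with 1 library left out ranged from 6 to 8 in both Day1 and Treated, from 2 to 7 in Day3 and from 0 to 2 in Extracted, against Control. It ranged from 0 to 4 for Day3 against Day1, 3 to 8 for Extracted against Day3, 5 to 8 for Treated against Extracted and 8 to 9 for the F test. In the fit of the 2 groups alone it was 9 in Day3 and 5 in Treated against Control, 0 for Day3 against Day1 and 4 for Treated against Extracted. With no filter it was 1 in Extracted against Control, 0 for Day3 against Day1 and 4 for Extracted against Day3. For Day3 against Day1 it was 1 under the median of ratios and 4 under each of the other 2 rescalings. The cause of these changes was not tested.

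The labels share replicate numbers, but deviations of same-numbered libraries correlated between -0.022 and 0.087 over genes in the 10 pairs of groups, so the numbers were not taken as pairs. With the replicate block, 7, 5, 2 and 8 members were called in Day1, Day3, Extracted and Treated against Control, 1 for Day3 against Day1, 7 for Extracted against Day3 and 7 for Treated against Extracted.

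Over all genes, the calls with 1 library left out and under the other alternatives were 965 to 4106 and 1894 to 3255 in Day1 (3132 as reported), 216 to 2254 and 832 to 2585 in Day3 (1489), 2 to 654 and 99 to 1031 in Extracted (302), and 1315 to 4183 and 1645 to 4348 in Treated (3715) against Control. They were 12 to 837 and 5 to 574 for Day3 against Day1 (356), 852 to 3206 and 1931 to 4079 for Extracted against Day3 (2599), and 166 to 3143 and 129 to 2018 for Treated against Extracted (1836). Of the calls against Control, the share that were higher was 69.6%, 52.8%, 43.0% and 25.7% in the same order of groups, and 45.6%, 38.8%, 49.3% and 53.8% under the median of ratios. Without mitochondrial and small-RNA genes it was 32.8%, 23.9%, 27.8% and 29.9%. TPM carry no counts, so low genes such as S100P and S100A8 in Control have no known counting error.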
